A study of Mus musculus with 6 samples.

Results

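The collagens are the genes of the triple-helical proteins of the extracellular matrix, chosen here as all mouse symbols made of Col, a number, the letter a and a number. The count tables held 44 such genes among 24063 symbols, namely 11 fibrillar collagens, 8 collagens of basement membranes and 25 others. Counts were high enough to test 24 of the 44, which were 9 fibrillar, 4 basement membrane and 11 other collagens.

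Each collagen molecule is a trimer of chains that wind around each other, and the chains can be copies of 1 gene's product or come from several genes. Fibrillar collagens (types I, II, III, V, XI, XXIV and XXVII) form the banded fibrils of connective tissue, and type IV forms the sheet-like network of basement membranes, where types XV and XVIII are also found. The remaining types coat fibrils, form beaded filaments or span the cell membrane. In the brain, collagens are known mainly from the meninges, from the walls of blood vessels and from the basement membrane at the surface of the tissue.

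The libraries came from mouse stem-like medulloblastoma cells of the cerebellum, a tumour of that region. All groups carried the genotype Math1-Cre; SmoM2. Math1 is the older name of Atoh1, a gene of granule neuron progenitors whose promoter drives the Cre recombinase, and SmoM2 is an active form of Smoothened, the transducer of the Hedgehog signal. The control group carried the guide RNA sgGal4-4 and was labelled WT, and the other groups carried sgMiat-6 or sgMiat-96 and were labelled as knockdowns of Miat, a long noncoding RNA. Each of the 3 groups had 2 libraries, and the labels used here do not give the age of the mice or say whether replicates came from separate cultures. The spread that p-values measure is therefore that between these samples and may be technical.

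Miat had 140 and 139 counts in the control libraries and 0 counts in all 4 libraries of the Miat guides. The libraries held between 18438891 and 19650274 counts in the rows used, of which collagens took 6274 and 5831 in the control, 4435 and 4369 with sgMiat-6 and 2904 and 3640 with sgMiat-96. Between replicates the chi-square per gene ran from 4.12 in the control to 19.1 with sgMiat-6, above the value of 1 that sampling noise gives. Among the markers of the labelled cells, Atoh1 had 0 counts in every library and Prom1 at most 3 counts over all libraries, while Nes (1126 ± 107 CPM in the control, SD, n = 2) and Sox2 (218 ± 6.54 CPM) were abundant. Of 8 granule neuron lineage markers only Atoh1 had no count. The 8 summed to 142 and 133 CPM in the control libraries and to between 212 and 234 CPM in the Miat libraries. In the control Pax6 was at 31.6, Meis1 at 26.5 and Mycn at 11.2 CPM. CPM are counts scaled to the library total (TMM-scaled), which corrects for library composition.

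In the contrast of both Miat guides against the control, 9 collagens rose, 6 fell and 9 were not called. This contrast takes the mean of the log2 fold changes of the 2 guides, so a call does not mean that each guide passed singly. The same holds wherever a result is given for both guides. A gene was called at a Benjamini-Hochberg adjusted p under 0.05 in edgeR's quasi-likelihood test over 13220 genes, and over all of these 33.1% were called higher and 33.4% lower. The members' counts thus lay near the background, and changes were common throughout the transcriptome. Changes of at least 2-fold were called upward in 8 of the 24 collagens, beside 11.4% of all genes tested, and downward in 6 of the 24, beside 13.7%. Of these 14 genes, 8 passed the filter on low counts only through the side where they were high. They were Col2a1, Col3a1, Col5a2, Col9a1 and Col18a1 with the Miat guides and Col1a1, Col4a5 and Col22a1 in the control. These genes had to differ, so the p-values and lack of overlap given for them below add no support. The counts are no support for an enrichment either. The median log2 fold change was 0.12 over the tested collagens and 0.00 over all genes tested. With library totals in place of TMM scaling these medians were 0.00 and -0.13. In bulk RNA, fewer cells of a type and less RNA per cell cannot be told apart.

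By class, 3 fibrillar collagens rose, 2 fell and 4 were not called, with a median log2 fold change of 0.09. Of the basement membrane collagens tested, 3 fell (Col4a1, Col4a2 and Col4a5) and 1 rose (Col18a1), with a median of -1.84. Of the other collagens 5 rose, 1 fell and 5 were not called, with a median of 0.28. These counts stand beside 33.1% of all genes tested called higher and 33.4% called lower, and no class was tested. Both counts and medians include genes that had to differ. These were all the fibrillar collagens that rose (Col2a1, Col3a1 and Col5a2) and Col1a1. Col4a5 and Col18a1 among the basement membrane collagens, and Col9a1 and Col22a1 among the others, had to differ too. The tested collagens had long transcripts, with a median of 5617 bases beside 2844 bases for all genes tested. After a trend of change over transcript length was removed, the median was 0.58 over collagens and 0.03 over all genes tested. In that fit 13 collagens were called higher and 6 lower, and the share called over all genes was not counted.

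**Figure D1:**
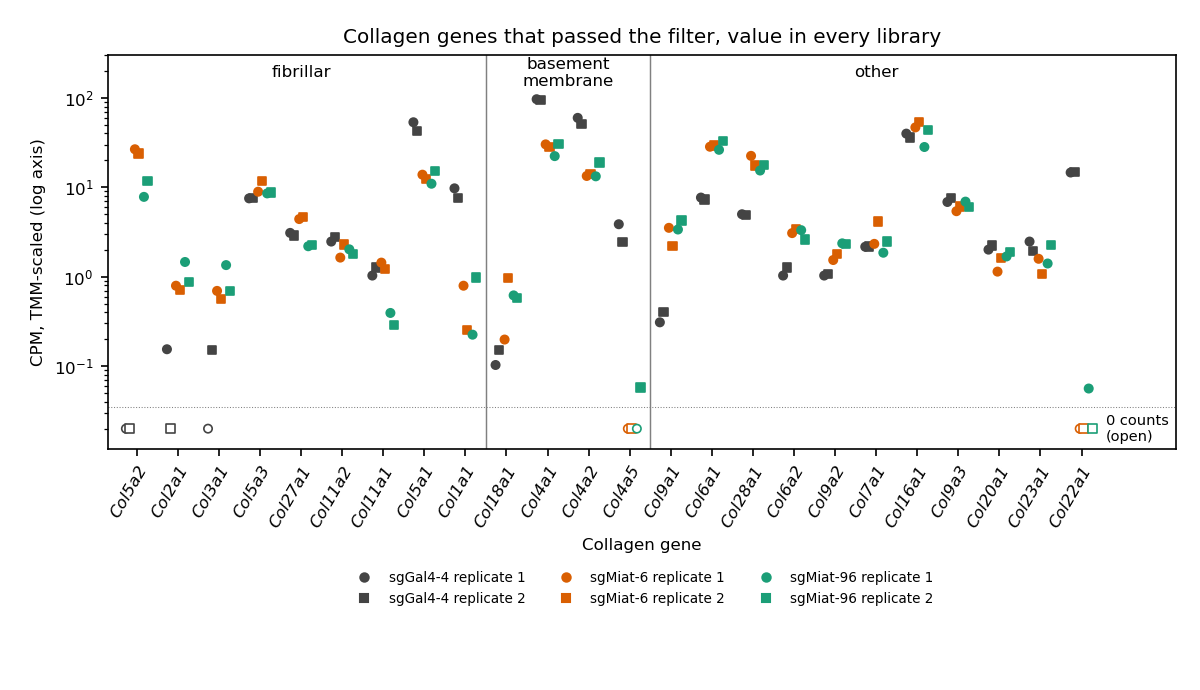
TMM-scaled CPM (log axis) of the 24 tested collagens in each of the 6 libraries, ordered within a class by the change with both Miat guides. Open points at the bottom are libraries with 0 counts. Col5a2 is open in both control libraries, and Col22a1 is near 14.7 CPM in the control and at or near 0 with either Miat guide.

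Type IV collagen is the network-forming collagen of basement membranes, and its genes Col4a1 and Col4a2 code for the chains of its most widespread trimer. They held the highest collagen levels of the control cells. Levels of different genes are compared here as CPM per kb of transcript, on which scale Col4a1 stood at 14.5 ± 0.18 (SD, n = 2) and made up 28.4% of all collagen transcripts in the control. Col4a2 followed at 8.62 ± 0.97, or 16.9%.

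The expression of Col4a1 was 96.6 and 94.9 CPM in the control libraries, 30.2 and 28.4 with sgMiat-6, and 22.3 and 30.6 with sgMiat-96. All Miat libraries lay below both control libraries. The log2 fold change of Col4a1 with both guides was -1.78 (SE 0.12, adjusted p = 3.79e-08). Col4a2 gave 59.8 and 51.0 CPM in the control, 13.4 and 14.0 with sgMiat-6, and 13.3 and 19.0 with sgMiat-96, again with no overlap. Its log2 fold change was -1.90 (SE 0.14, adjusted p = 8.31e-08). The ratio of the Col4a1 level to the Col4a2 level was 1.69 ± 0.17 in the control, 2.08 ± 0.15 with sgMiat-6 and 1.60 ± 0.05 with sgMiat-96, and it lay between 1.57 and 2.19 over the 6 libraries.

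The Col4a1 and Col4a2 genes lie head to head on chromosome 8 (RefSeq, GRCm38.p6), at 11198423 to 11312889 on the minus strand and 11312805 to 11449287 on the plus strand, which overlap. The start sites of the transcripts that the RefSeq promoter table uses lie at or inside these outer limits, at 11312826 and 11312805, and are 21 bases apart. Their promoter windows, from 250 bases before to 50 bases after the start, are shown because these neighbours fell together, and they share 78 bases. The window of Col5a1, the other well expressed collagen that fell and has a window, is shown beside them, at chr2:27886175-27886474 on the plus strand. The Col4a1 window is chr8:11312777-11313076 on the minus strand, and the Col4a2 window is chr8:11312555-11312854 on the plus strand. Capitals mark the letters GGGCGG (GC box) and CCAAT on either strand.
Col4a1: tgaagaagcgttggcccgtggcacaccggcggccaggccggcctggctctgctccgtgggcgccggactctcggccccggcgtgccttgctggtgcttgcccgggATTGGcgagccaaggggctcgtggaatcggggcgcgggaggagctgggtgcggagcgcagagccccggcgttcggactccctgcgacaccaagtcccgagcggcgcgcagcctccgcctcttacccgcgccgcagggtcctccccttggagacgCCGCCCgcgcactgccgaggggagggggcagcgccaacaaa
Col4a2: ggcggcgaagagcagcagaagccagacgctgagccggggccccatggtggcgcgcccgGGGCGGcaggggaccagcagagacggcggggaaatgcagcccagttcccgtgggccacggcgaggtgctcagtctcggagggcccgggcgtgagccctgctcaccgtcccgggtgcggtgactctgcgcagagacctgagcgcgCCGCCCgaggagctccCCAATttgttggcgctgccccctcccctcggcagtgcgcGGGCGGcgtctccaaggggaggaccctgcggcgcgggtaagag
Col5a1: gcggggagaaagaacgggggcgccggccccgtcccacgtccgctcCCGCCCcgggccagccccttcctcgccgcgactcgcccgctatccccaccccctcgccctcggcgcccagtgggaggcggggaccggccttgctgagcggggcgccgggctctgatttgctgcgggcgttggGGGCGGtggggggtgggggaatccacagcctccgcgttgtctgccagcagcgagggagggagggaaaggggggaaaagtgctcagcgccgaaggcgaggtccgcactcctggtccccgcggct

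The windows of Col6a1 (chr10:76725995-76726294, minus strand) and Col28a1 (chr6:8192568-8192867, minus strand) are shown as those of collagens above 10 CPM with the guides that rose and have a window, and hold neither motif. Other collagens that rose do hold them, as the GC box occurs in windows of Col6a2, Col9a2 and Col18a1 and CCAAT in windows of Col9a1 and Col18a1.
Col6a1: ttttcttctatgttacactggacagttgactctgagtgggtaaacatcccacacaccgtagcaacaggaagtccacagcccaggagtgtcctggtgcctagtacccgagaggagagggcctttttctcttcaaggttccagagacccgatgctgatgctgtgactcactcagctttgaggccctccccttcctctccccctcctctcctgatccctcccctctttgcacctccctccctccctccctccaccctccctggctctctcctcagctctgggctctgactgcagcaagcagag
Col28a1: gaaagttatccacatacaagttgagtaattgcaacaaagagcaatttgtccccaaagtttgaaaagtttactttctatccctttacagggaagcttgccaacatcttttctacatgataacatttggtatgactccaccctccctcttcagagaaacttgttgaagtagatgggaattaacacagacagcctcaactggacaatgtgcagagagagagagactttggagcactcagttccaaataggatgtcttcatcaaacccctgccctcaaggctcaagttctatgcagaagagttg

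The windows of Col4a1, Col4a2 and Col5a1 were rich in G and C, at 74.0%, 73.7% and 75.0%, and held 37, 33 and 34 CpG pairs. Over all 32851 windows of that length the medians were 52.7% and 7 CpG pairs. The Col6a1 and Col28a1 windows had 57.3% and 41.7% G and C, with 3 and 0 CpG pairs. Other collagens that rose varied. The Col9a2 window had 61.7% with 10 CpG pairs. Windows of Col6a2 had 64.3% and 56.7% with 16 and 6, and those of Col18a1 had 63.3% and 59.7% with 16 and 6. The Col3a1 window had 37.7% with 0, and those of Col9a1 had 47.3% and 55.7% with 0 and 1. A link between composition and change was not tested. The GC box was present in 35.7% of all windows and in 23 of the 38 windows of 35 collagens that matched the RefSeq table by symbol. CCAAT was present in 37.4% of all windows and in 13 of the 38. The Col16a1 window, at 74.3% G and C with 24 CpG pairs, belongs to a gene that was not called. Not every lower gene shared the composition, as the Col4a5 window had 52.7% G and C and 11 CpG pairs. These matches describe the letters of the windows and do not show that a factor binds there.

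Col4a5 codes for a chain of the other type IV trimers, which replace the common one in kidney and some other basement membranes. It had 75 and 48 counts in the control, 0 and 0 with sgMiat-6, and 0 and 1 with sgMiat-96. With sgMiat-6 it was lower by at least 41.6-fold, taking the floor of 3 counts over the group, and the ratio with both guides was 235-fold (95% Clopper-Pearson interval 41.4 to 9366, counting error only). Col4a5 was called lower with an adjusted p of 9.38e-07. Its neighbour on the X chromosome, Col4a6, begins 1274 bases away and had no count in any library.

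The remaining type IV genes were too low to test. Col4a3 had 8 and 2 counts in the control and between 0 and 5 in the Miat libraries. Col4a4 had 23 and 6 counts in the control and between 2 and 5 in the Miat libraries. They overlap by 114 bases on chromosome 1, and where genes overlap, as Col4a1 and Col4a2 do too, the counts may be shared, since the sources used here do not say whether strand was used in counting.

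Types XV and XVIII are basement membrane collagens with attached sugar chains, and the end of the type XVIII chain is released as endostatin. Col15a1 had 0 and 6 counts in the control and 0, 0, 0 and 1 in the Miat libraries. Col18a1 was low throughout, with 2 and 3 counts in the control, 4 and 19 with sgMiat-6, and 11 and 10 with sgMiat-96. The sgMiat-6 libraries differed widely from each other, and the lower of them stood just above the control. Col18a1 was not called with sgMiat-6 alone (adjusted p = 0.0528). In the mean of both guides it was called higher, with a log2 fold change of 2.15 (SE 0.78, adjusted p = 0.0268). That call was lost with DESeq2 (adjusted p = 0.0651) and without any 1 library except sgMiat-6 replicate 1, where the adjusted p was between 0.0535 and 0.127.

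Summed over the class, basement membrane collagens stood at 24.7 and 22.8 CPM per kb in the control, 6.70 and 6.70 with sgMiat-6, and 5.57 and 7.75 with sgMiat-96. Their share of all collagen transcripts was 46.6% ± 0.11 in the control (SD, n = 2), 15.8% ± 0.12 with sgMiat-6 and 18.0% ± 1.31 with sgMiat-96. The share of the other collagens moved the opposite way, from 34.1% ± 1.31 to 63.9% ± 0.52 and 66.5% ± 0.84. A fall in the basement membrane part raises such shares by itself. Summed, the other collagens averaged 17.4 CPM per kb in the control, 27.0 with sgMiat-6 and 24.5 with sgMiat-96. Within them the fibril-associated collagens averaged 13.3, 13.5 and 11.7, and type VI averaged 2.23, 8.16 and 8.24. Fibrillar collagens took 19.3% ± 1.20, 20.3% ± 0.40 and 15.5% ± 0.48. The sum over all collagens was 53.0 and 49.0 CPM per kb in the control, 42.1 and 42.5 with sgMiat-6, and 32.7 and 41.0 with sgMiat-96. These sums and shares are descriptions with no test.

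**Figure D2:**
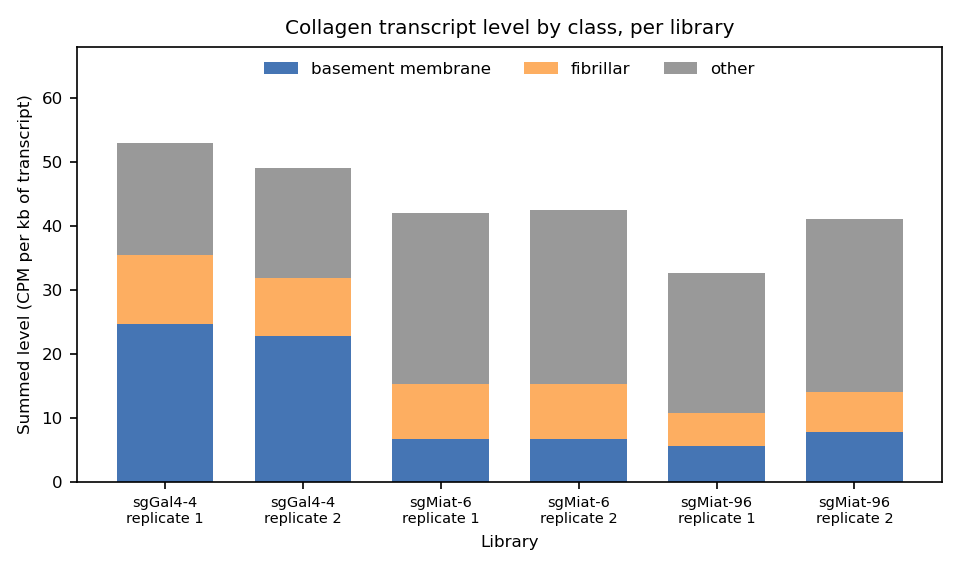
Summed collagen level (CPM per kb of transcript) in each library, stacked by class. The basement membrane part is 24.7 and 22.8 in the control libraries and between 5.57 and 7.75 in the Miat libraries.

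Among the fibrillar collagens, the type V genes moved apart. Type V is a minor fibrillar collagen that sits inside fibrils of type I and limits their width, and its usual trimer holds copies of the Col5a1 chain with a Col5a2 chain. Col5a2 had no count in either control library, 537 and 468 counts with sgMiat-6, and 139 and 205 with sgMiat-96. It was at least 330-fold higher with sgMiat-6, at least 128-fold higher with sgMiat-96 and at least 235-fold higher with both guides, taking the floor of 3 counts over the control group (adjusted p = 7.94e-09 for both guides).

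Col5a1 went the other way. Its expression was 53.4 and 42.9 CPM in the control, 13.8 and 12.4 with sgMiat-6, and 11.0 and 15.2 with sgMiat-96, without overlap between control and Miat libraries. The log2 fold change of Col5a1 was -1.88 (SE 0.14, adjusted p = 1.34e-07). Per length, Col5a1 stood at 5.73 ± 0.88 in the control (SD, n = 2) with Col5a2 at 0, whereas with sgMiat-6 the ratio of the Col5a1 to the Col5a2 level was 0.41 in both libraries and with sgMiat-96 it was 1.06 ± 0.06. Col5a3, the gene of another type V chain, was not called, at 7.54 ± 0.02 CPM in the control, 10.4 ± 2.03 with sgMiat-6 and 8.66 ± 0.16 with sgMiat-96 (log2 fold change 0.33, SE 0.17, adjusted p = 0.0958). Col5a3 was called higher without sgMiat-6 replicate 1 (adjusted p = 0.0217) and with the length trend removed (adjusted p = 0.00253). Its ratio to Col5a1 was 0.22 ± 0.03 in the control, 1.10 ± 0.30 with sgMiat-6 and 0.94 ± 0.20 with sgMiat-96.

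**Figure D3:**
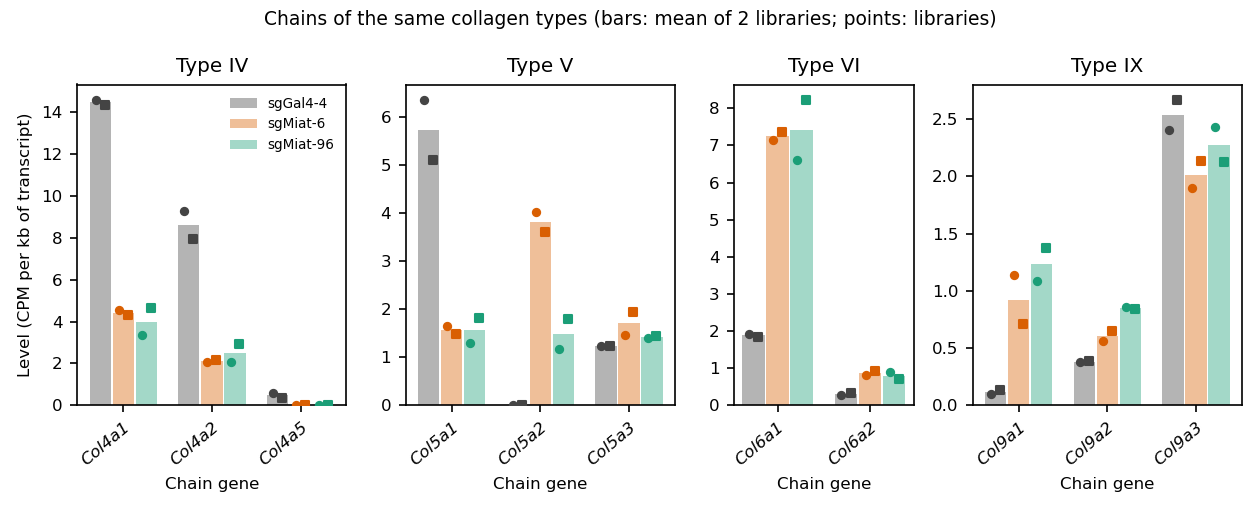
Level (CPM per kb of transcript) of the tested chains of types IV, V, VI and IX. Bars are means of 2 libraries and points are libraries (circles replicate 1, squares replicate 2). In the type V panel Col5a1 is at 5.73 in the control with Col5a2 at 0, while in the type VI panel Col6a1 and Col6a2 are both higher with the Miat guides.

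Type I collagen, the main collagen of skin and bone, is built from Col1a1 and Col1a2 chains. Col1a1 gave 9.74 and 7.60 CPM in the control, 0.79 and 0.26 with sgMiat-6, and 0.22 and 0.98 with sgMiat-96. Control and Miat libraries did not overlap, which adds no support since Col1a1 passed the filter only through the control. The Miat replicates of a guide differed several-fold from each other at counts of 4 to 17. The log2 fold change of Col1a1 was -3.93 (SE 0.35, adjusted p = 7.07e-07). Its partner chain was nearly silent, since Col1a2 had 1 count in 1 control library, 1 in 1 sgMiat-96 library and 0 elsewhere.

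Type II is the main collagen of cartilage, and type III accompanies type I in soft tissue and vessel walls. Col2a1 had 3 and 0 counts in the control, 16 and 14 with sgMiat-6, and 26 and 15 with sgMiat-96. The ratio of Col2a1 with both guides was 12.4-fold higher (95% interval 4.07 to 61.4, adjusted p = 0.00102). Col3a1 had 0 and 3 counts in the control, 14 and 11 with sgMiat-6, and 24 and 12 with sgMiat-96, a ratio of 10.6-fold (95% interval 3.47 to 53.0, adjusted p = 0.00239). Control and Miat libraries did not overlap for either gene, which adds no support since both passed the filter only through Miat libraries. Both stayed at or under 0.24 CPM per kb on average, far less than Col5a2. Col3a1 and Col5a2 are neighbours on chromosome 1, 24624 bases apart, and both rose.

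Types XI, XXIV and XXVII are fibrillar collagens known mainly from cartilage and developing bone. Col11a1 was not called with both guides, at 1.15 ± 0.17 CPM in the control, 1.33 ± 0.15 with sgMiat-6 and 0.34 ± 0.07 with sgMiat-96 (log2 fold change -0.76, SE 0.37, adjusted p = 0.0887). With library totals in place of TMM scaling it was called lower (log2 fold change -0.89, adjusted p = 0.0487). Col11a2 was not called either, at 2.63 ± 0.22, 1.97 ± 0.47 and 1.91 ± 0.17 CPM (log2 fold change -0.44, SE 0.26, adjusted p = 0.155). Col27a1 showed no call with both guides, at 2.99 ± 0.14, 4.53 ± 0.16 and 2.22 ± 0.04 CPM (log2 fold change 0.09, SE 0.22, adjusted p = 0.742), but was called higher with the length trend removed (0.66, adjusted p = 0.0169). Col24a1 had 1 count in 1 control library and 1 in 1 sgMiat-96 library.

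Type VI collagen forms beaded filaments close to cells and is usually assembled from the chains of Col6a1, Col6a2 and Col6a3. Col6a1 gave 7.68 and 7.30 CPM in the control, 28.4 and 29.3 with sgMiat-6, and 26.3 and 32.7 with sgMiat-96. All Miat libraries were above both control libraries, and Col6a1 made up 3.69% of all collagen transcripts per length in the control, 17.2% with sgMiat-6 and 20.1% with sgMiat-96. With sgMiat-96 it stood above Col16a1 in replicate 1 (6.60 against 5.42 CPM per kb) and slightly below it in replicate 2 (8.23 against 8.39). Its log2 fold change was 1.96 (SE 0.14, adjusted p = 1.09e-07). Col6a2 gave 1.03 and 1.27 CPM in the control, 3.07 and 3.42 with sgMiat-6, and 3.32 and 2.60 with sgMiat-96, with a log2 fold change of 1.43 (SE 0.28, adjusted p = 0.000588).

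The ratio of the Col6a1 level to the Col6a2 level was 6.19 ± 1.12 in the control, 8.35 ± 0.45 with sgMiat-6 and 9.62 ± 3.11 with sgMiat-96, and the Miat libraries (7.42 to 11.8) lay above the control libraries (5.40 and 6.99). These ratios rest on Col6a2 counts of 20 and 25 in the control and 45 to 67 in the Miat libraries, and their difference was not tested. The chain that usually completes the trimer was all but absent, as Col6a3 had 5 and 5 counts in the control and 0 in every Miat library. Of the chains that can stand in for it, Col6a4 had 0 counts in the control and 4, 6, 6 and 3 in the Miat libraries, Col6a5 had 1 count in 1 library and Col6a6 had 3 counts in 1 control library. Col6a1 and Col6a2 lie 85161 bases apart on chromosome 10, whereas Col6a4, Col6a5 and Col6a6 form a cluster on chromosome 9.

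Fibril-associated collagens attach to the surface of fibrils and carry short helices with breaks. Col22a1, which codes for a chain known from tissue junctions such as that of muscle and tendon, had 284 and 291 counts in the control, 0 and 0 with sgMiat-6, and 1 and 0 with sgMiat-96. With sgMiat-6 it was lower by at least 195-fold, and the ratio with both guides was 1100-fold lower (95% interval 197 to 43512, adjusted p = 1.01e-09). In the control Col22a1 stood at 2.40 ± 0.01 CPM per kb, above Col6a1 and Col1a1. Col22a1 lies on chromosome 15, where the median log2 fold change of genes with at least 5 CPM was -0.38. Chromosome 1, which holds Col5a2, Col3a1 and Col9a1, had a median of -0.47. The other chromosomes lay between -0.09 and 0.19, and the part of this difference in the collagen changes was not tested.

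Type IX collagen decorates type II fibrils in cartilage and joins the chains of Col9a1, Col9a2 and Col9a3. Col9a1 gave 0.31 and 0.41 CPM in the control, 3.52 and 2.19 with sgMiat-6, and 3.37 and 4.27 with sgMiat-96. Control and Miat libraries did not overlap, which adds no support since Col9a1 passed the filter only through Miat libraries. Its log2 fold change was 3.19 (SE 0.39, adjusted p = 1.04e-05). Col9a2 rose less, from 1.05 ± 0.02 CPM to 1.66 ± 0.18 and 2.33 ± 0.04 (log2 fold change 0.91 in the mean of both guides, SE 0.30, adjusted p = 0.0172). With sgMiat-6 alone it was not called (adjusted p = 0.123). The call of Col9a2 was lost with DESeq2 (adjusted p = 0.0826) and without either control library (adjusted p = 0.132 without replicate 1 and 0.115 without replicate 2).

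The remaining chain gene of type IX was not called. Col9a3 was at 7.23 ± 0.53 CPM in the control, 5.74 ± 0.47 with sgMiat-6 and 6.49 ± 0.60 with sgMiat-96 (log2 fold change -0.24, SE 0.17, adjusted p = 0.215). Col9a3 overlaps Tcfl5, a gene that was called higher, so its counts are uncertain where strand is not known. Per length, the ratio of Col9a1 to Col9a2 was 0.30 ± 0.05 in the control, 1.56 ± 0.67 with sgMiat-6 and 1.45 ± 0.26 with sgMiat-96. That of Col9a3 to Col9a2 was 6.65 ± 0.34, 3.34 ± 0.08 and 2.68 ± 0.21.

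Col16a1, a fibril-associated collagen found near many cell types, followed Col4a1 and Col4a2 among the collagens of the control per length (14.3% of collagen transcripts) and led them with sgMiat-6 (22.7%). It was not called with both guides, at 37.9 ± 2.65 CPM in the control, 50.02 ± 4.61 with sgMiat-6 and 36.0 ± 10.9 with sgMiat-96 (log2 fold change 0.16, SE 0.15, adjusted p = 0.363). It was called higher without sgMiat-96 replicate 1 (adjusted p = 0.0427) and with the length trend removed (0.00692), and stood at a log2 fold change of -0.01 without sgMiat-96 replicate 2. Col20a1 was not called, at 2.12 ± 0.16, 1.39 ± 0.35 and 1.80 ± 0.15 CPM (log2 fold change -0.43, SE 0.28, adjusted p = 0.199). Col19a1, which lies 4944 bases from Col9a1, had 0 and 2 counts in the control and 4, 7, 9 and 5 in the Miat libraries, too few to test. Col12a1 and Col14a1, known from tendon and skin, had at most 5 counts in any library.

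Col28a1 codes for a collagen known from the basement membranes around nerves. It gave 4.997 and 4.91 CPM in the control, 22.5 and 17.5 with sgMiat-6, and 15.4 and 17.8 with sgMiat-96. No Miat library overlapped the control, and the log2 fold change was 1.88 (SE 0.17, adjusted p = 6.74e-07). Its share of collagen transcripts was 2.30% in the control, 11.2% with sgMiat-6 and 10.7% with sgMiat-96. Col7a1, the gene of the anchoring fibrils below the epidermis, was not called, at 2.17 ± 0.01, 3.23 ± 1.28 and 2.17 ± 0.44 CPM (log2 fold change 0.28, SE 0.29, adjusted p = 0.405), but was called higher with the length trend removed (0.97, adjusted p = 0.0159).

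Collagens that span the cell membrane were low. Col23a1 was not called, at 2.20 ± 0.39 CPM in the control, 1.33 ± 0.36 with sgMiat-6 and 1.83 ± 0.60 with sgMiat-96 (log2 fold change -0.49, SE 0.31, adjusted p = 0.172). Col25a1, whose product is known from neurons, had 8 and 4 counts in the control and 0 in every Miat library. Col13a1, with 2 counts in all, and Col17a1, with 2 counts in 1 control and 2 in 1 sgMiat-6 library, were close to silent.

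Of the 20 collagens that were not tested, Col4a6 and Col8a2 had no count in any library. These and 7 others, namely Col1a2, Col24a1, Col6a5, Col6a6, Col8a1, Col13a1 and Col26a1, had at most 3 counts over all libraries. Col8a1 had 1 count in 1 control library, Col10a1 had 3 and 1 counts with sgMiat-96 and 0 elsewhere, and Col26a1 had 2 counts in 1 control and 1 in 1 sgMiat-6 library. For a library with 0 counts of a gene, 3 counts is the upper limit allowed by counting error, which corresponded to between 0.149 and 0.173 CPM.

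**Figure D4:**
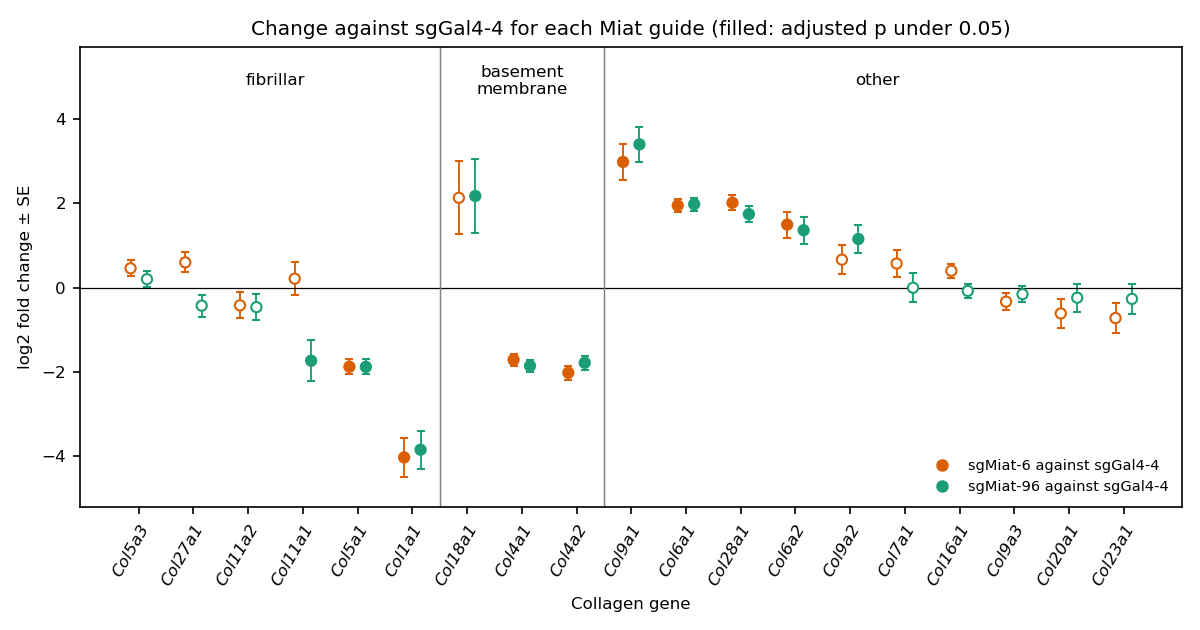
Log2 fold change (± SE) against sgGal4-4 for each Miat guide, filled where the adjusted p was under 0.05. Col5a2, Col2a1, Col3a1, Col4a5 and Col22a1, with at most 3 counts in a group, are left out because their fold changes are given as bounds or count ratios. Col4a1, Col4a2, Col5a1 and Col1a1 lie below 0 and Col9a1, Col6a1, Col28a1 and Col6a2 above 0 with each guide.

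The guides were also compared with the same 2 control libraries singly, so their results are not independent of each other. With sgMiat-6, 7 collagens were called higher and 6 lower, beside 26.9% and 26.1% of all genes tested. With sgMiat-96, 9 were called higher and 7 lower, beside 34.0% and 34.2%. With the length trend removed each guide gave 12 higher and 6 lower, and the share called over all genes was not counted in that fit. Col18a1 (adjusted p = 0.0528 with sgMiat-6 and 0.0407 with sgMiat-96) and Col9a2 (0.123 and 0.00812) passed the threshold with sgMiat-96 and not with sgMiat-6. Neither passed when the guides were compared directly (adjusted p = 0.968 and 0.239). Col11a1 was called lower with sgMiat-96 (log2 fold change -1.73, SE 0.49, adjusted p = 0.00687) and not called with sgMiat-6 (0.21, adjusted p = 0.663), and for this gene the direct comparison of the guides passed (adjusted p = 0.00836). Col1a1 changed by -4.02 with sgMiat-6 and -3.84 with sgMiat-96 on the log2 scale. The corresponding values were -1.71 and -1.85 for Col4a1, 1.95 and 1.98 for Col6a1, and 2.01 and 1.74 for Col28a1.

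Compared directly, sgMiat-96 against sgMiat-6, 0 collagens were higher and 4 lower, beside 17.8% and 18.8% of all genes tested. At an unadjusted p under 0.05 the counts were also 0 and 4, in edgeR and in DESeq2. With the length trend removed 2 were higher and 2 lower at the adjusted threshold. Shares over all genes were not counted at the unadjusted threshold or in that fit. Col5a2 was lower with sgMiat-96 by 1.36 on the log2 scale, at 9.82 ± 2.84 CPM against 25.3 ± 1.94 CPM with sgMiat-6 (log2 fold change -1.36, SE 0.20, adjusted p = 0.000957). Col11a1 had 29 and 24 counts with sgMiat-6 and 7 and 5 with sgMiat-96 (log2 fold change -1.94, SE 0.48, adjusted p = 0.00836). Col27a1 was at 4.41 and 4.64 CPM with sgMiat-6 and 2.19 and 2.25 with sgMiat-96 (log2 fold change -1.03, SE 0.25, adjusted p = 0.00795). In each of these 3 genes the libraries of one guide did not overlap those of the other, which adds no support since the genes were picked by that difference.

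Col16a1 was lower by a smaller amount (log2 fold change -0.48, SE 0.17, adjusted p = 0.0464). The 3 other genes passed with at least a 2-fold difference, beside 5.51% of all genes tested in either direction. Col5a2 kept its call without any 1 library. The call of Col11a1 did not hold without sgMiat-6 replicate 1 (adjusted p = 0.0522) or sgMiat-96 replicate 1 (0.0549), and that of Col27a1 without sgMiat-96 replicate 1 (0.0655) and with the length trend removed (0.112). The number of collagens lower with sgMiat-96 was then 2 without sgMiat-6 replicate 1 and 1 without sgMiat-96 replicate 1.

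Collagen chains are made in the endoplasmic reticulum, where prolines and lysines are hydroxylated before the helix folds. The counts that follow stand beside 33.1% of all genes called higher and 33.4% called lower with both guides, and no list was tested against that background or against another list. Some members had to differ, because they passed the filter only through the side where they were high, namely Adamts2, Adamts3, Leprel4, Loxl1, Mmp14, Mmp2 and Tll1 with the Miat guides and Bgn and Leprel2 in the control. Of 12 genes of prolyl and lysyl hydroxylases and their partners, 9 were tested, of which 6 rose and 1 fell with both guides (median log2 fold change 0.34). Leprel2, a prolyl 3-hydroxylase, was at 23.4 CPM in the control, 0.15 with sgMiat-6 and 0.79 with sgMiat-96 (log2 fold change -6.04). Plod1, a lysyl hydroxylase, rose from 147 to 439 and 636 CPM (log2 fold change 1.84). Crtap, a partner of prolyl 3-hydroxylation, rose from 43.0 to 113 and 158 CPM (1.63). Leprel4 had 1 count in the control and was at 0.61 and 0.59 CPM with the guides.

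Newly made chains are then folded and exported. Of 11 genes for chaperones, sugar transfer and export, 10 were tested, of which 2 rose and 7 fell (median log2 fold change -0.81). Fkbp14, a folding enzyme, fell from 55.2 to 15.0 and 11.0 CPM (log2 fold change -2.10). Sec24d (-1.61) and Sec23a (-1.59), coat proteins of the vesicles that carry cargo out of the endoplasmic reticulum, fell too. Ppib, the cyclophilin that helps collagen fold, rose from 241 to 459 and 697 CPM (1.23).

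After export the end pieces are removed and the chains are cross-linked. Of 8 genes of propeptide cleavage, 7 were tested, of which 4 rose and 3 fell. The procollagen N-proteinase genes Adamts14 and Adamts2 moved apart, as Adamts14 fell from 38.7 to 9.91 and 6.10 CPM (log2 fold change -2.31) and Adamts2 had no count in the control and 1.15 and 2.90 CPM with the guides. The enhancer genes Pcolce (-1.20) and Pcolce2 (-1.22) fell. Of 6 cross-linking genes, 4 were tested, of which 2 rose and 1 fell. The lysyl oxidase relative Loxl4 fell (log2 fold change -3.11), Loxl3 rose (0.53), Loxl1 was at 0 in the control and at 1.06 and 0.85 CPM with the guides, and Lox had no count in any library.

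Of 9 matrix proteins that bind collagen, 5 were tested, of which 1 rose and 4 fell. Nid2, which links laminin to type IV collagen, fell from 23.4 to 5.08 and 4.81 CPM (log2 fold change -2.24). Fn1, the gene of fibronectin, fell (-1.23), as did Hspg2, the gene of the basement membrane proteoglycan perlecan (-0.88). Bgn, the gene of biglycan, was at 0.61 CPM in the control and had no count with either guide.

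Of 11 collagen receptor genes, 6 were tested, of which 1 rose and 4 fell with both guides. With sgMiat-96 alone the same numbers were called, and with sgMiat-6 alone 2 fell and the others, Ddr1 (adjusted p = 0.069) among them, were not called. Ddr2, a receptor kinase that binds fibrillar collagen, fell from 403 to 104 and 66.9 CPM (log2 fold change -2.27). Gpr56, a receptor for type III collagen in the brain, fell (-1.16), as did the integrin gene Itga1 (-1.20), while the kinase gene Ddr1 rose (0.33). Of 12 genes of collagenases and their inhibitors, 8 were tested, of which 5 rose and 2 fell with both guides, 3 and 1 with sgMiat-6 alone and 5 and 2 with sgMiat-96 alone. Timp4 rose from 39.3 to 182 and 265 CPM (2.48) and Mmp15 rose (0.92), while Timp1 fell (-2.26). Mmp14, a membrane-bound collagenase, had no count in the control and was at 0.73 and 6.41 CPM with sgMiat-6 and sgMiat-96.

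Markers of several cell types, among them fibroblasts and cells of the meninges and vessel walls, changed in both directions. Of 9 fibroblast and meningeal markers, 4 were tested and all 4 were called higher with both guides, beside 33.1% of all genes. With sgMiat-6 alone 3 were called higher, beside 26.9%. The 9 markers summed to 39.1 and 37.8 CPM in the control, 96.7 and 95.3 with sgMiat-6, and 116 and 111 with sgMiat-96. Of the 4 tested, Thy1 (0.21 CPM in the control, 26.0 and 45.0 with the guides) and Pdgfra (0.05, 8.09 and 4.62) passed the filter only through Miat libraries, so they had to differ. Foxc1 and Foxd1 were above the filter in every group. Foxd1 was called higher with each guide, and Foxc1 with sgMiat-96 but not with sgMiat-6 (log2 fold change 0.31, adjusted p = 0.0618). Dcn, too low to test, had 2 and 3 counts in the control and 0 in every Miat library, and the fibroblast genes Lum, Aldh1a2, Twist1 and Dpt had at most 3 counts over all libraries. The summed mural cell markers were at 143 and 123 CPM in the control and between 36.3 and 45.1 in the Miat libraries, nearly all of it Cspg4, while Pdgfrb, Abcc9 and Kcnj8 had at most 3 counts over all libraries. Of the 3 mural markers tested Cspg4 and Acta2 fell, and Tagln was not called with both guides (1.18 CPM in the control, 1.39 and 2.56 with the guides) but was called higher with sgMiat-96 (adjusted p = 0.0142). Acta2 passed the filter only through the control, so it had to differ. Endothelial markers summed to 6.65 and 7.85 CPM in the control and between 2.40 and 4.12 in the Miat libraries, with Kdr and Cldn5 at no more than 3 counts over all libraries. Of 8 astrocyte markers, 7 were tested, of which 6 fell and 1 rose, beside 33.4% and 33.1% of all genes, with sums of 2928 and 2837 CPM in the control and between 660 and 838 in the Miat libraries. Gfap and Aqp4, among those that fell, passed the filter only through the control, so they had to differ. Microglia and macrophage markers summed to between 1.83 and 6.29 CPM in all libraries, and of the 2 tested Tmem119 fell (1.89 CPM in the control, 0.23 and 0.37 with the guides) and Cd68 rose (1.58, 2.76 and 5.22). Of 8 granule neuron lineage markers, 6 were tested, of which 4 rose and 1 fell with both guides, beside 33.1% and 33.4% of all genes. Mycn fell (log2 fold change -2.40), and Neurod1 (1.71) was among those that rose. The part of these marker changes in the collagen results was not tested.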

How the data were processed

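Per the labels' protocols, total RNA from a column kit went into mRNA libraries. STAR and the build GRCm38 (mm10) are named in the submitters' processing notes. Their versions, the counter, the annotation and the use of strand were not given in the sources used here. The authors deposited a whole-number count and an FPKM value for each of 33984 transcript rows per library, per the file headers. FPKM served to recover transcript lengths (whole within 0.01 bases in 100% of values) and zeros. The file of sgMiat-96 replicate 2 lists 11223 rows at 1 count although their FPKM is 0, and these were set to 0. The row with the highest total count was kept per symbol, since isoform rows share reads.

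Counts of all 6 libraries were fitted in 1 model of 3 groups with edgeR 4.0.16 in R 4.3.3 (filterByExpr, TMM, quasi-likelihood test with 3 residual degrees of freedom). DESeq2 1.42.0 was among the alternatives, as were other scaling, filtering, row choice, a length correction and leaving out each library. Folds against a group without counts are bounds, for which 3 counts over that group were assumed. Against a group of 1 to 3 counts, the ratio has a 95% Clopper-Pearson interval. Both cover counting error only. Coordinates and promoter windows are RefSeq's on GRCm38.p6.

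The members and lists were chosen with earlier results of these data known. All 44 collagens are named. Values in every library are given for those called with both guides at 2-fold or more, and for other genes where the text turns on them. From a pathway list at most 4 called genes are named, those with the lowest adjusted p.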

Additional observations from a re-analysis of the deposited data

Results flagged for a closer look

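In 3 collagens the effects of the Miat guides differed from each other by at least 2-fold in the direct contrast of sgMiat-96 against sgMiat-6 (edgeR's quasi-likelihood test, adjusted p under 0.05). The log2 fold change was -1.94 for Col11a1, -1.03 for Col27a1 and -1.36 for Col5a2. Col11a1 and Col27a1 passed in this contrast but were not called with both guides against the control, while Col5a2 was called higher with each guide. The cause of these differences was not tested.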

How the results depend on the processing

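The numbers of collagens called lower with both guides were 6 without any 1 library, and those called higher were between 7 and 10. Over the same omissions sgMiat-6 gave 6 to 9 higher and 6 lower, sgMiat-96 gave 7 to 9 higher and 6 to 8 lower, and the contrast of sgMiat-96 against sgMiat-6 gave 0 higher and 1 to 4 lower. With the length trend removed, sgMiat-6 gave 12 higher, and the contrast between guides gave 2 higher and 2 lower. The cause was not tested. The sign changed for 2 values among genes that were not called, as Col27a1 stood at -0.043 with library totals without TMM scaling and Col16a1 at -0.014 without sgMiat-96 replicate 2 (and at 0.30, its highest value, without sgMiat-96 replicate 1).

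The labels state no pairing of the samples. The correlations of same-numbered deviations were 0.01, -0.09 and -0.21. These cannot exclude a pairing or a shared batch, since the numbers need not follow it. A replicate block changed no call, with 9 higher and 6 lower for both guides, 7 and 6 for sgMiat-6, 9 and 7 for sgMiat-96, and 0 and 4 between guides. Without the filter on low counts 10 were called higher and 9 lower with both guides. DESeq2 gave 7 and 6. Shares called over all genes were counted only for the main fit, so the counts under the alternatives have no background beside them. A fit of only the groups compared gives no value for both guides. The 105 other counts of calls obtained under the alternatives lay within 1.5 times of the main ones. A count of 0 in a library leaves room for up to 3 counts.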
